A study of Bombyx mori with 3 samples.

Results

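The untreated midgut of silkworm larvae (Bombyx mori, strain P50) was described from the control channel of 3 arrays, each of which carried a control and a treated sample in different dyes. The members were chosen by a detection rule: of 23229 gene probes on the array, 3964 (17.06%) carried the deposited detection mark on all 3 arrays. A further 497 gene probes were marked on 2 arrays, 665 on 1 array and 18103 on no array. Control larvae received mulberry leaves dipped in water, in place of the 1 min dip in phoxim solution, from day 3 of the fifth larval stage, and midguts were dissected 24 h later. The larvae were reared at 25 to 26 °C, and 30 larvae were used per experiment. The other channel of each array held RNA from midguts of larvae fed phoxim-dipped leaves, phoxim being an organophosphate insecticide, and it was not used here except where stated. Dissected midguts were sampled, so each value is an average over the cell types of the gut wall and anything dissected with it, and fewer cells of a type cannot be told apart from less RNA per cell. The labels state that the experiment was run 3 times and number the arrays as replicates, without tying an array to a run, so the spread given below is the spread between these 3 untreated samples.

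The larval midgut of Lepidoptera digests leaf protein, lipid and sugar in a strongly alkaline lumen. Columnar cells secrete trypsins, chymotrypsins, lipases and glucosidases, carry aminopeptidase N on their microvilli and absorb the products. Goblet cells carry a V-ATPase, a proton pump that energises potassium transport and the high pH of the lumen. A peritrophic membrane of chitin and chitin-binding proteins lines the lumen and keeps food from the epithelium. The fifth stage is the last larval stage, in which the animal eats most of its food.

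The detection mark read the brighter channel of a spot: the dimmest marked spot had 400 units in its brighter channel on each array and the brightest unmarked spot 399. The mark therefore also admitted probes that were dim in untreated midgut. The control intensity was 400 or more on all 3 arrays for 3535 members, under 400 on at least 1 array for 429 members and under 400 on all 3 for 23. At the edge of the rule, the 100 members with the lowest mean rank had a median control intensity of 358.5, and the gene probes marked on 2 arrays had 388. The 95th percentile of the negative control spots was 306.8, 164.4 and 340 on replicates 1, 2 and 3, and 47, 9 and 29 members were at or below it. All intensities are fluorescence in arbitrary units.

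Each array was ranked by itself, and a probe's place is the mean of its percentile over the 3 arrays, where 100 is the brightest member. A percentile places the brightness of a spot, not the number of transcripts, because probes differ in how well they hybridise. Median control intensities of the members were 1123.5, 1137.5 and 1159 on replicates 1, 2 and 3. The 3 untreated samples ranked the members alike: Spearman's rho across members was 0.944 between replicates 1 and 2, 0.931 between 1 and 3 and 0.932 between 2 and 3, as a description across probes that share each array. Of the 100 brightest probes of each array, 72 were among the brightest 100 on all 3. The SD of log2 intensity between the arrays, each centred on its median, had a median of 0.231 over the members. Spots of 1 control probe repeated over an array had SDs of 0.113 to 0.35, with a median of 0.237 over 11 such probes and 3 arrays. Each of these SDs is over 48 or 49 spots, while the SD between arrays is over 3 values. The 2 medians are therefore not on 1 scale, and which spread is larger was not tested.

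Replicate 2 stood apart in its dye. By the column headers its control RNA was in Cy5, and in Cy3 on replicates 1 and 3, while the sample labels put the control in Cy3 on every array. The headers were followed. In the brightest 10% of the members, the 396 probes with the highest mean percentile, replicate 2 was higher than the mean of the others by a median of 0.27 on the log2 scale, against a median of -0.012 over all members. At the top, 13 members were saturated on at least 1 array, meaning at 99% or more of the highest control intensity of that array: 3 on replicate 1, 13 on replicate 2 and 1 on replicate 3. On replicate 2 the 13 share 1 value, 59716, and have no order among them. On replicate 1 the highest control intensity was 59585, that of member probe sw19432 itself. Its label there follows from the definition and does not show a ceiling. A difference of replicate 2 from the other samples and a difference between the dyes cannot be told apart.

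The brightest end was led by digestive proteases, ribosomal proteins and probes without a name. Among the 30 genes with the highest mean rank, 4 were serine proteases, 6 ribosomal proteins, 3 lipases and 11 had neither a gene description nor a protein match in the files. The brightest probe, sw19432 for the trypsin-like protease LOC100101175, read 59585, 59716 and 63268 and met the definition of saturation on all 3 arrays. Probe sw22515, matched to a serine protease precursor and also to a fatty acid binding protein, read 59025, 59716 and 55541. Probe sw01090, which has no match in the files, read 59568, 59716 and 50081. The lowest value among these genes was 23346, and 23 of the 30 were highest on replicate 2, where 34.1% of all members were.

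**Figure D1:**
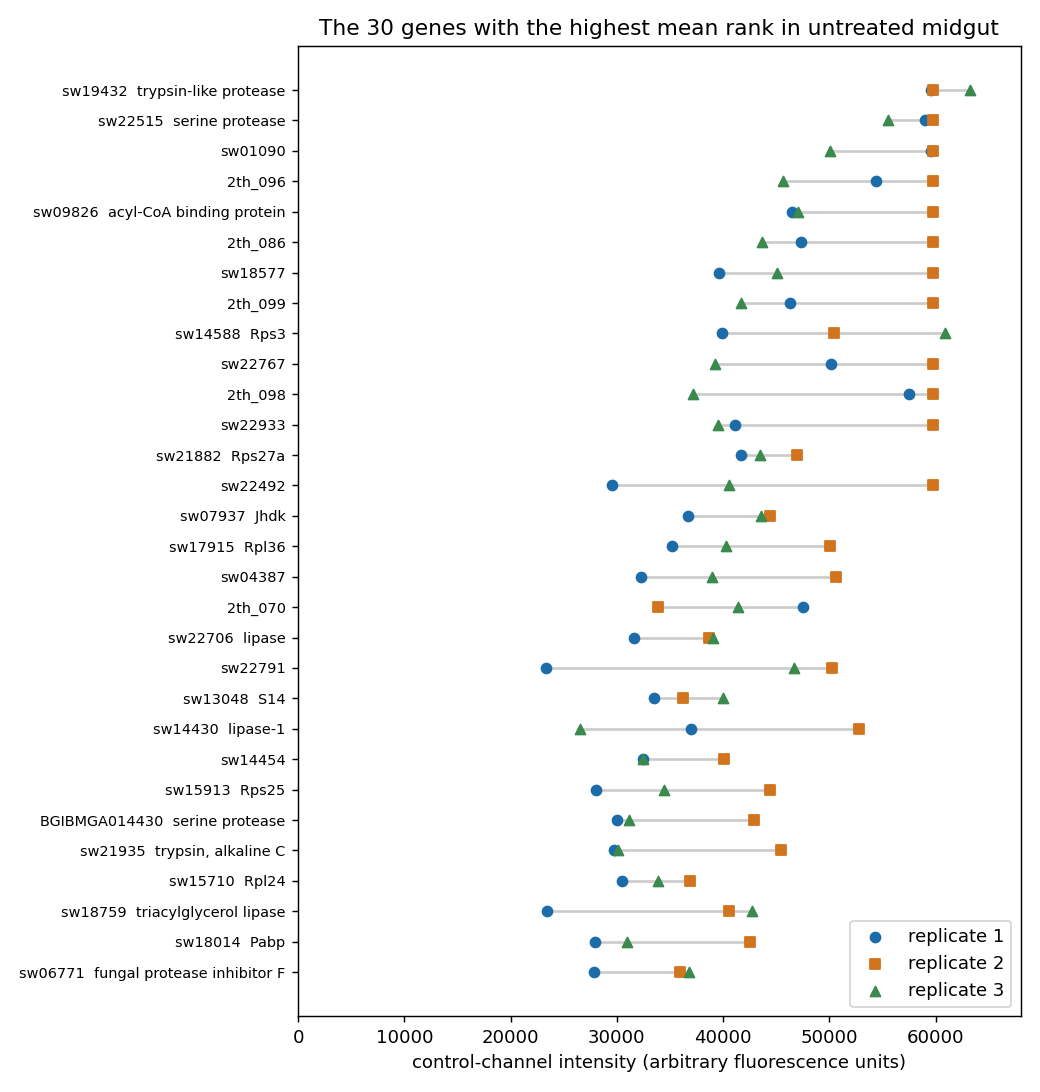
Control-channel intensity (arbitrary fluorescence units, linear axis from 0) of the 30 genes with the highest mean rank, with 1 point per replicate array and a grey line from the lowest to the highest. The trypsin-like protease sw19432 lies at 99% or more of the highest control intensity of all 3 arrays. On at least 1 array, 12 of the 30 genes reach that level.

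The deposited files give probe sequences for 28 members, and 13 of these lay in the brightest 10%. They are shown because 5 of them are among the 30 brightest genes while the files give them no name, so that the sequence is what identifies them. Each is a 69-base probe printed as deposited, and gene model positions are those of the files, whose assembly is not given in the sources used here. Capitals mark the motif GTTCGNGTNTCNCGNTTCANNTCNTGGA, where N is any base, which was made from the letters that 2th_096, 2th_029 and 2th_079 share after their likeness was noticed, and then searched on both strands. It was found in 3 of the 100 deposited probe sequences (3.0%), all 3 of them members.
2th_096: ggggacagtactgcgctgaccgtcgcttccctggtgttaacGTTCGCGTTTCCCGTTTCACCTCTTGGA
2th_029: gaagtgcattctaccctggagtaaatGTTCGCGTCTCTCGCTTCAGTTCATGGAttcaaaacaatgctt
2th_079: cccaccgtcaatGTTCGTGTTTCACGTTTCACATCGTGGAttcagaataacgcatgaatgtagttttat
2th_086: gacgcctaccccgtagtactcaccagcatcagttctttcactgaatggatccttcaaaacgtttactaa
2th_099: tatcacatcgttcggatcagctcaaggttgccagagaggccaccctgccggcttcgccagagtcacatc
2th_098: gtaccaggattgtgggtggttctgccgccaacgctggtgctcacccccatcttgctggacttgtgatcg
2th_070: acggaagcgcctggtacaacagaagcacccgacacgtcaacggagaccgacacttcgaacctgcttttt

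The 3 probes with the motif read gene models that the files place or number next to each other. Probe 2th_096 reads BGIBMGA003567 (nscaf2674:1700964-1703335, minus strand) and gave 54394, 59716 and 45651. Probe 2th_029 reads BGIBMGA003568 (nscaf2674:1677402-1683769, minus strand) and gave a mean percentile of 96.22. Probes 2th_030 and 2th_079 read BGIBMGA003569 (nscaf2674:1666921-1675086, minus strand), with mean percentiles of 95.28 and 84.92. The 3 gene models span 36.4 kb of the scaffold, and 3 of their 4 probes lay in the brightest 10%.

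For 11 of the 28 probes the files list a gene model with which the probe may cross-hybridise, and some of these led to named proteases. Others did not: no member reads the models listed for 2th_096, the brightest of the 28, or for 2th_083 and 2th_089. Probe 2th_086 (BGIBMGA010062, nscaf2983:1053773-1057648, plus strand) gave 47341, 59716 and 43694. It lists the gene model read by sw19432, the trypsin-like protease with the highest mean rank. Probe 2th_099 (BGIBMGA014524, scaffold769:10251-11882, minus strand; 46315, 59716 and 41664) lists a model read by sw22515, the serine protease precursor. Probe 2th_098 (BGIBMGA014428, scaffold644:923-2605, minus strand) gave 57469, 59716 and 37132. It lists the gene model of 2th_099, which is itself unnamed. Probe 2th_079 lists the model of sw21893, a trypsin-like protease with a mean percentile of 87.23. How much of each signal came from the listed gene was not tested. Probe 2th_070, which the files tag with BGIBMGA012787 and no cross-hybridisation, gave 47562, 33919 and 41413. A second probe of that gene model, 2th_089, lay at a mean percentile of 93.05, against 99.42 for 2th_070.

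Serine proteases held the largest summed signal of the digestive enzyme lists, while the lipase and 30kP protease lists had higher median percentiles. Of 96 array probes with such a name, 33 were members, and 17 of these (51.5%) lay in the brightest 10%, which holds 9.99% of all members by its definition. Their median percentile was 89.7, against 49.2 over all members, and they held 3.51, 3.86 and 3.55% of the summed member signal on replicates 1, 2 and 3. Probe BGIBMGA014430, for serine protease precursors, read 29971, 42894 and 31150, and sw21935, matched to alkaline trypsin C, read 29731, 45445 and 30146. The family was not uniform: 6 of the 33 lay below the median of all members. The serine proteinase-like protein LOC733001 (sw17430) read 301, 445 and 1267, with the largest SD of the list, 1.05. It was brightest in replicate 3 and under the mark level in replicate 1.

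A separate group of 7 members carried a match to 30kP protease A, a Bombyx protease described in eggs as acting on the 30K proteins of yolk and haemolymph. In these midguts 6 of the 7 were in the brightest 10%, with a median percentile of 96.1. Its brightest probe, sw14336 (LOC692590, 35kDa protease), read 30036, 36292 and 24233. Probes sw04624 and sw02387 read 27440, 29673, 16752 and 15825, 18618, 14309. The dimmest, sw07592, read 1340, 863 and 808 and lay at a mean percentile of 43.3. None of the 7 was highest in replicate 3.

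Aminopeptidases, carboxypeptidases and cathepsins, which finish protein digestion at the cell surface and inside cells, numbered 27 members, with 8 in the brightest 10% and a median percentile of 85.5. The 3 brightest were aminopeptidases N, enzymes of the microvilli that also serve as receptors for Bacillus thuringiensis toxins in Lepidoptera. Apn4 (sw19250) was steady at 26508, 27603 and 29114, with an SD of 0.045. Apn3 (sw18255) read 21658, 39367 and 25296, and Apn1 (sw03042) read 19134, 30507 and 28605. The widest spread of the list was that of sw11913, matched to X-prolyl aminopeptidase, at 3140, 10278 and 5018. It was highest on replicate 2, whose control was in the other dye.

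Lipases showed 2 levels. Of 10 members, 6 were in the brightest 10% and 4 at a mean percentile of 66.53 or lower, and the median was 95.7. Probe sw22706, matched to a fly lipase, read 31655, 38713 and 39086. Lipase-1 (LOC692513, sw14430), a digestive-juice protein with reported antiviral activity in Bombyx, read 36972, 52813 and 26522, and triacylglycerol lipase (LOC692849, sw18759) read 23383, 40598 and 42766. The samples did not order these genes alike, as lipase-1 was lowest in replicate 3 and triacylglycerol lipase highest there. At the dim end sw21877, also matched to a Bombyx triacylglycerol lipase, read 301, 323 and 584.

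Carbohydrate-digesting enzymes were spread more widely. Of 20 members, 4 lay in the brightest 10% and the median percentile was 69.6. Beta-glucosidases led, with sw18703 at 18615, 24756 and 21098 and sw18992 at 19332, 28016 and 17010. An alpha-amylase match, sw21252, read 15268, 27577 and 22579. The largest SD, 1.19, was that of sw05025, matched to a lysosomal beta-galactosidase, at 672, 1450 and 3591.

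**Figure D2:**
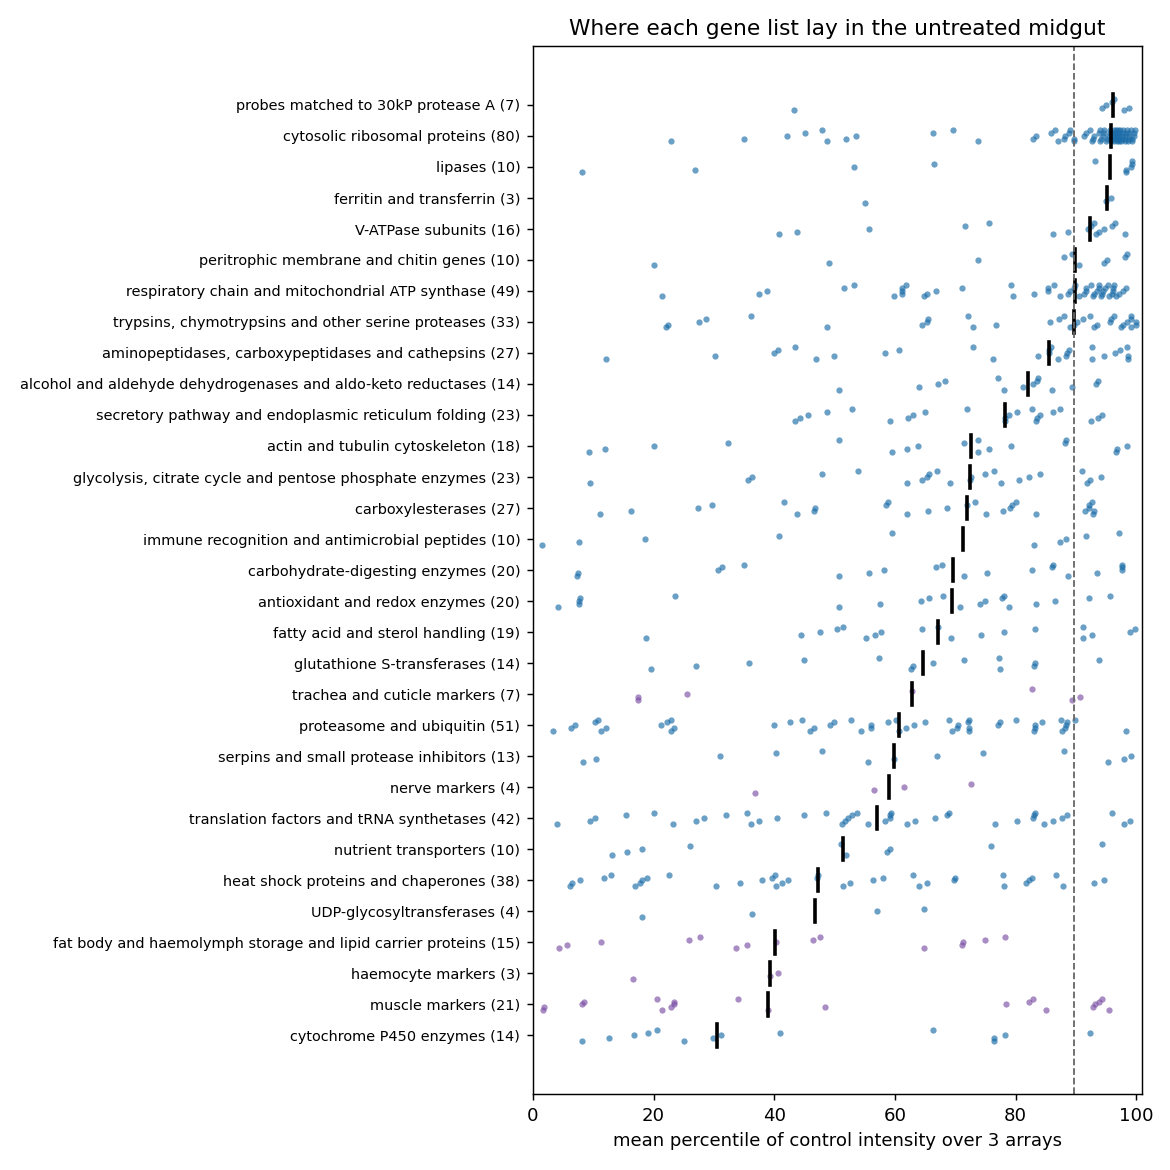
Mean percentile of control intensity over 3 arrays for each member (point) of the gene lists with at least 3 members, with the number of members in parentheses. Black bars are list medians, the dashed line is the lower edge of the brightest 10%, blue points are midgut and general lists and purple points are marker lists of other tissues. The 30kP protease, ribosomal, lipase and ferritin lists have medians above 95, and cytochrome P450 enzymes have the lowest median at 30.5.

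The peritrophic membrane and chitin genes numbered 10 members, 5 of them in the brightest 10%, with a median percentile of 89.9. Probe sw14766, matched to a peritrophic membrane chitin-binding protein, read 16938, 34876 and 38968. Probe sw07167, matched to an insect intestinal mucin that binds chitin in the membrane, read 20631, 24215 and 27666. Chitin synthase (sw11666), the enzyme that makes the polymer, read 9459, 12312 and 20841. These genes were less even across the samples than most: their median SD was 0.595 against 0.231 over all members, and 9 of the 10 were highest in replicate 3, where 34.2% of all members were. The widest was a second mucin match, sw06604, at 5810, 17090 and 32122. The list summed to 71237, 114757 and 159193 units.

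V-ATPase subunits were bright and even. Of 16 members, 9 lay in the brightest 10% and the median percentile was 92.3. The median SD was 0.18, against 0.231 over all members. Subunit G (LOC692985, sw13277) read 23079, 31859 and 19002, subunit E (LOC732990, sw14793) read 12851, 25700 and 13667, and subunit H (LOC733031, sw21938) read 15833, 15206 and 14588. Subunit E had the widest spread of the list, 0.555, and was highest on replicate 2. The catalytic subunit A had 2 probes at different levels, sw22916 (LOC100037424) at 3440, 2095 and 3036 and sw17542, matched to the hornworm subunit, at 9180, 9762 and 9272.

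Nutrient transporters were placed about as the members in general, with 1 of 10 in the brightest 10% and a median percentile of 51.4. The exception was sw01620, matched to the potassium-coupled amino acid transporter of the hornworm, which uses the potassium gradient set up by the V-ATPase. It read 8819, 15773 and 11207, and a second probe with the same match, sw04008, read 2504, 3471 and 2637. A B(0,+)-type amino acid transporter match, sw07761, was dim at 344, 793 and 469. Carbonic anhydrases had 2 members, sw15626 at 5319, 3329 and 5611 and sw12231, whose closest match is bacterial, at 508, 579 and 835.

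Cytosolic ribosomal proteins were the largest bright group. Of 80 members, 59 (73.8%) lay in the brightest 10%, the median percentile was 95.8, and they held 9.23, 10.31 and 10.39% of the summed member signal on replicates 1, 2 and 3. They supplied 20 of the 100 brightest probes. Rps3 (sw14588) read 39923, 50436 and 60875, Rps27a (sw21882) 41711, 46937 and 43468, and Rpl36 (sw17915) 35208, 50082 and 40278. None had an SD above 1 between the samples, but only 1.44% of all members did. The list was not even across arrays: 60 of the 80 were highest on replicate 2, where 34.1% of all members were. This was not particular to the list. Its median log2 excess of replicate 2 over the mean of the others was 0.258, near the 0.27 of the brightest 10% as a whole. On replicate 1, 3 were highest, where 31.6% of all members were. The files' own pathway annotation gave a like picture, with 48 of 58 members of the Ribosome map in the brightest 10% and a median percentile of 96.3.

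Translation factors and tRNA synthetases were not bright as a list, at 3 of 42 in the brightest 10% and a median percentile of 57.0. Elongation factor 1 alpha (LOC693059, sw22910), which brings aminoacyl-tRNA to the ribosome, read 26090, 36597 and 35650. Elongation factor 2 (LOC733027, sw21939) read 17975, 25849 and 26202, and elongation factor 1 gamma (Ef-1g, sw11933) read 10825, 20704 and 14942. None of the 11 members of the Aminoacyl-tRNA biosynthesis map was in the brightest 10%, and their median percentile was 41.5. Poly A binding protein (Pabp, sw18014), which binds the tails of messenger RNAs, read 27937, 42501 and 30964.

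Mitochondrial energy genes were bright. Respiratory chain and ATP synthase subunits had 26 of 49 members (53.1%) in the brightest 10% and a median percentile of 89.8. Their median SD was 0.213, near the 0.231 over all members. ATP synthase coupling factor 6 (LOC778519, sw06216) read 23260, 29832 and 22917, the 14 kD subunit of ubiquinol-cytochrome c reductase (Uccr, sw05715) 20523, 23944 and 20530, and a cytochrome c oxidase VIc match (sw15035) 18395, 18077 and 19768. The widest spread of the list was that of sw01468, NADH-ubiquinone reductase LOC733123, which read 4688, 936 and 4730 and was low on replicate 2 alone. Enzymes of glycolysis, the citrate cycle and the pentose phosphate pathway lay lower, with 4 of 23 in the brightest 10% and a median percentile of 72.4. Enolase (LOC100037426, sw19290) led them at 10239, 13330 and 9828, followed by cytosolic malate dehydrogenase (LOC692952, sw06088) at 8979, 9827 and 7684 and triosephosphate isomerase (sw11392) at 9164, 9828 and 6779.

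Genes that bind and carry lipids included some of the brightest probes. Of 19 members of the fatty acid and sterol list, 5 lay in the brightest 10%, with a median percentile of 67.2. The acyl-CoA binding protein LOC692575 (sw09826), which holds activated fatty acids in the cytosol, read 46534, 59716 and 47054, the second value being saturated. A fatty acid binding protein (LOC732863, sw22549) read 26069, 48176 and 27048. A second acyl-CoA binding protein, LOC692574 (sw06932), read 9929, 10532 and 7301. Under the labels' dye assignment 3 of the 19 were in the brightest 10%. Juvenile hormone diol kinase (Jhdk, sw07937), an enzyme that clears a breakdown product of juvenile hormone, was among the 30 brightest genes at 36690, 44387 and 43618.

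Iron proteins were represented by 3 members. Ferritin, the iron store, was bright in both probes, with LOC732916 (sw03108) at 12577, 22154 and 11232 and a 32 kDa subunit match (sw11169) at 12738, 20841 and 8780. Both were highest on replicate 2. A transferrin match (sw16203) read 1288, 991 and 1892.

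Detoxification families differed in brightness in the untreated gut. Carboxylesterases had 6 of 27 members in the brightest 10% and a median percentile of 72.0, with sw05012 at 7116, 12470 and 10001, sw14575 at 9428, 8788 and 9754 and sw13684 at 13040, 7583 and 8302. Glutathione S-transferases had 1 of 14 in the brightest 10% and a median of 64.7. The omega 1 form (LOC692819, sw06512) read 11141, 10215 and 10466, while LOC692678 (sw11708) read 501, 298 and 967. Cytochrome P450 enzymes had the lowest median of the lists, 30.5, with 1 of 14 in the brightest 10%: a CYP4 match (sw20343) at 7151, 8642 and 11384, followed by Cyp9a22 (sw09427) at 2800, 3985 and 2928. The 4 UDP-glycosyltransferase members had no probe in the brightest 10%, and the brightest, sw19839 (an ecdysteroid UDP-glucosyltransferase match), read 2358, 1730 and 1484. Alcohol and aldehyde dehydrogenases lay higher, at a median percentile of 82.0, with 2 of 14 in the brightest 10%, led by sw22687 at 8275, 15038 and 9682.

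Among antioxidant enzymes, 2 of 20 were in the brightest 10% and the median percentile was 69.4. A thioredoxin-like protein (LOC778509, sw13644) read 12480, 19424 and 11263, and manganese superoxide dismutase (Sod2, sw21871), the mitochondrial form, read 6014, 4589 and 5372. Catalase (Cat, sw03619), which breaks down hydrogen peroxide, was dim and uneven at 963, 421 and 540. Heat shock proteins and chaperones lay near the middle, with 2 of 38 in the brightest 10% and a median percentile of 47.2. Heat shock protein 1 (LOC778468, sw20098) led at 12042, 10397 and 13159, while Hsp70 (sw22585) read 345, 364 and 731. Proteasome and ubiquitin genes had 2 of 51 in the brightest 10% and a median of 60.7, and genes of the secretory pathway had 3 of 23 and a median of 78.3, with calreticulin (Crt, sw12517) at 7101, 10903 and 9330.

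Immune recognition genes included 1 very bright and uneven probe. Of 10 members, 2 were in the brightest 10% and the median percentile was 71.3. Probe sw20413, matched to a gram-negative bacteria binding protein, read 8986, 28971 and 42630 with an SD of 1.15, and was low in replicate 1. Peptidoglycan recognition protein matches sw17703 and sw09651 read 6753, 7062, 12799 and 5977, 8904, 4550. The antimicrobial peptide lebocin (LOC693033, sw08844) read 251, 312 and 360 and a cecropin D match (sw18189) read 841, 829 and 1063, both below the median of all members.

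Protease inhibitors had 3 of 13 members in the brightest 10% and a median percentile of 59.9. Probe sw06771, matched to fungal protease inhibitor F, a small inhibitor of proteases from insect-infecting fungi, read 27863, 35958 and 36815. A second probe with the same match, sw01309, read 1000, 7527 and 5981 and had the largest SD of the list, 1.58. Serpin-2 (LOC692573, sw18472) read 25793, 24775 and 21226. A chymotrypsin inhibitor (Sci-sb, sw10501) read 519, 697 and 2699 and was high in replicate 3 alone.

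Markers of neighbouring tissues were present at different levels. Over the whole array, 17.06% of gene probes were members. Of 12 silk gland probes on the array (fibroin, sericin and P25) none was a member, and the 1 Malpighian tubule probe was not a member. With so few probes, this does not show that either tissue was absent. Haemocyte markers had 3 members of 40 probes, all below the median of all members, the brightest by mean rank being sw08957, an integrin match, at 912, 982 and 814. Nerve markers had 4 members of 31 probes and none in the brightest 10%. Muscle markers, which a gut wall with its muscle layer is known to contain, had 21 members of 58 probes and 5 in the brightest 10%. The list as a whole was not bright: its median percentile was 39.0, against 49.2 over all members. Only 9 of the 21 lay above the median of all members. These 5 were myosin light chain 2 (LOC778518, sw13219) at 13140, 14185 and 13747, troponin I (Wupa, sw14071) at 9964, 15375 and 10104, a myosin light chain match (sw14604) at 8860, 17684 and 8714, tropomyosin (LOC100101174, sw13994) and a muscle actin match (sw22633). The muscle list summed to 72484, 96484 and 73314 units on replicates 1, 2 and 3.

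Fat body products differed most between the untreated samples. The fat body makes the storage proteins (arylphorin and SP1) and the 30K lipoproteins, which it releases into the haemolymph. Of 34 such probes 15 were members, where 17.06% of all gene probes were. None of the 15 was in the brightest 10%, and their median percentile was 40.2. SP1 (Sp1, sw12337) read 132, 410 and 7863, with an SD of 3.02, the largest of the list. Its value on replicate 1 was under the mark level and under the negative control level of 306.8 there, so the size of this SD is uncertain. An arylphorin alpha match (sw06703) read 1588, 2163 and 10658, and Sp2 (arylphorin, sw03545) read 713, 625 and 4013. The 30K lipoprotein LOC693044 (sw22736) read 1405, 1160 and 4978. All 4 were several-fold higher in replicate 3 than in the other samples.

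Of the 15 fat body members, 9 were at least 2-fold higher in replicate 3 than in both other samples, where 0.959% of all members (38) were. Their median excess of replicate 3 over the mean of the others was 1.78 on the log2 scale, and the list summed to 16514, 15138 and 47384 units. Against replicate 1 alone, whose control was in the same dye, 9 of the 15 were at least 2-fold higher in replicate 3, where 2.27% of all members were. With control taken as Cy3 on every array, as the labels state (on replicate 2 the headers name that channel as the phoxim sample), 2 of the 15 were at least 2-fold above both others (0.681% of all members) and the median excess was 0.881, so the call of replicate 3 against replicate 2 turns on the dye assignment. The 3 members that were not highest in replicate 3 included sw22699, a 30 kDa lipoprotein match, at 3229, 3601 and 2853.

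Cuticle proteins, which the epidermis and tracheae make, moved with the fat body list. Of 100 probes 7 were members, where 17.06% of all gene probes were. All 7 were highest in replicate 3, where 34.2% of all members were. At least 2-fold above both other samples were 4 of the 7 (0.959% of all members). With control taken as Cy3 on every array, 2 were (0.681% of all members). Wcp11 (larval cuticle protein 1, sw08718), in the brightest 10%, read 5967, 5666 and 15954. A larval cuticle protein LCP17 match (sw01201) read 3290, 3330 and 7103. The haemocyte list summed to 2380, 1620 and 3343 units. The amount of other tissue in each sample was not measured, and the part of these transcripts in the differences between samples was not tested. As given above, 9 of 10 peritrophic and chitin genes were also highest in replicate 3. Of the 10, 6 were at least 2-fold above replicate 1, where 2.27% of all members were. Only 1 of the 10 was at least 2-fold above both other samples (0.959% of all members). In replicate 1, 3 of the 10 were at least 2-fold below both others (0.58% of all members).

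**Figure D3:**
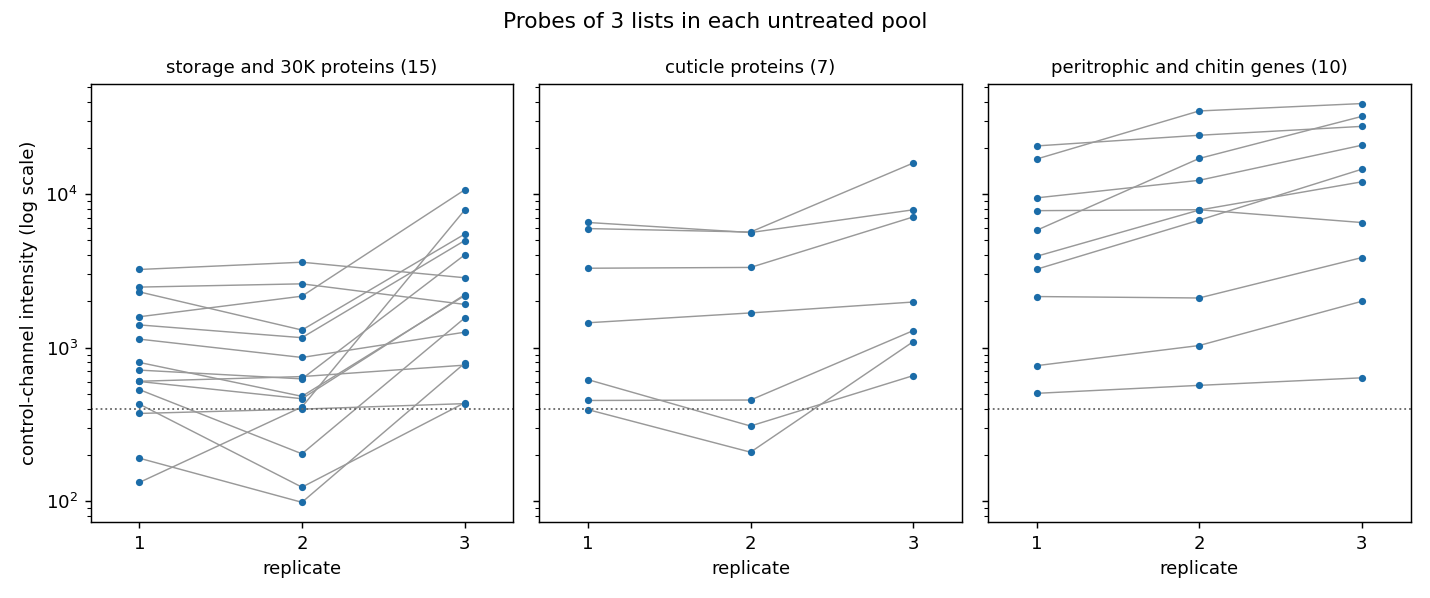
Control-channel intensity (log axis) of each probe of 3 lists on replicates 1, 2 and 3. Grey lines join the values of 1 probe and imply no order of the samples; the dotted line is the detection level of 400. In the fat body list 12 of 15 probes, in the cuticle list all 7 and in the peritrophic list 9 of 10 are highest in replicate 3. Of all members, 34.2% are.

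Over all members, few separated 1 untreated sample from both others. At least 2-fold above both others were 7 members in replicate 1 (0.177%) and 39 in replicate 2 (0.984%), the latter falling to 20 with control taken as Cy3 on every array. At least 2-fold below both others were 23 in replicate 1 (0.58%), 28 in replicate 2 (0.706%) and 15 in replicate 3 (0.378%). Among members with 400 units or more on all arrays, chemosensory protein 4 (Csp4, sw13392), a small carrier of hydrophobic ligands, had the largest SD, 1.59, and read 1214, 8836 and 7886. The hypothetical protein An0128 (sw00529) read 617, 4541 and 3394. Both were low in replicate 1, as were the inhibitor sw01309 and the immune probe sw20413 above. Probe sw18642 (LOC778474, putative amine transporter) read 1477, 9991 and 1771, and sw19011, matched to an unnamed worm protein, read 566, 3521 and 516, both high on replicate 2 alone.

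The steadiest probes of the brightest 10% included ribosomal and mitochondrial genes. Rpl27 (sw14386) read 11109, 11432 and 11611, with an SD of 0.012. A pair of NADH dehydrogenase 1 beta subunit matches followed, sw18133 at 15504, 16073 and 16007 and sw09392 at 6792, 6919 and 6815. A match to the fly protein Drac3 (sw14834) read 8666, 8632 and 9043, and a PAI-1 mRNA binding protein match (sw12044) read 7888, 8134 and 8446. These SDs are below the 0.113 to 0.35 found for repeated spots within an array, so their order among steady probes carries no information.

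**Figure D4:**
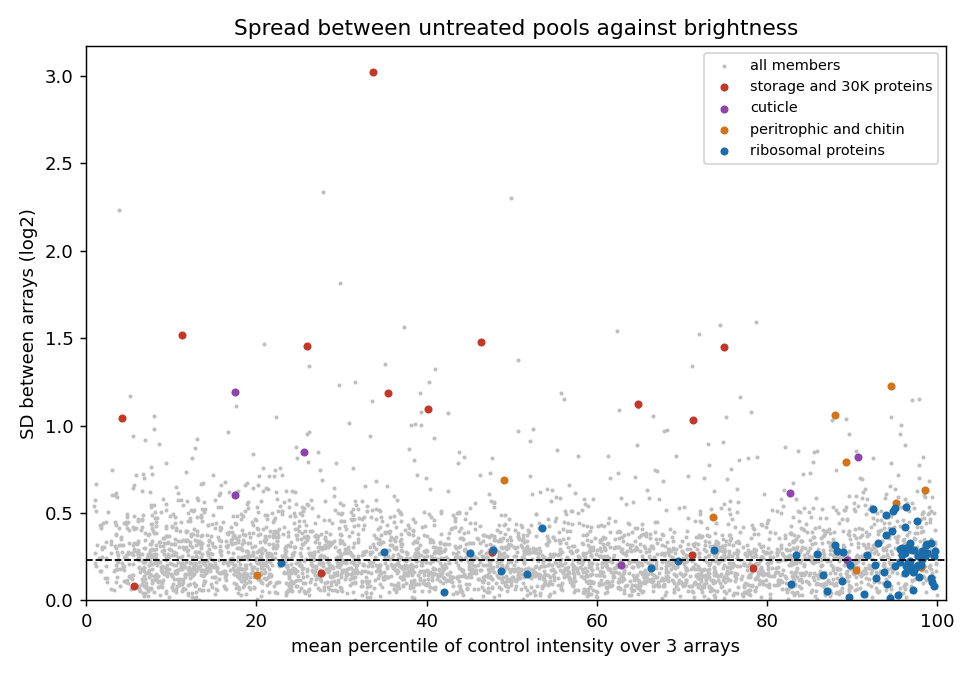
SD of log2 control intensity between the 3 arrays (each centred on its member median) against mean percentile, for all 3964 members (grey) and 4 lists (coloured). The dashed line is the median SD, 0.231; ribosomal proteins lie near it, while 10 of 15 storage and 30K protein probes exceed an SD of 1.

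How far a probe's place stands for its gene can be read from genes with several probes. Among members, 61 genes had 2 or more probes (126 probes in all), and the brightest and dimmest probe of a gene differed by a median of 11.4 percentile points and 1.73-fold in intensity. A probe differed between its 3 arrays by a median of 8.3 points. The gap between probes is taken from means over 3 arrays and the 8.3 points from single arrays. The 2 figures are therefore not on 1 scale. The gap reached 25 points or more in 18 of the 61 genes. The widest was in Chbp, a chlorophyllide-binding protein of the gut, whose 3 probes lay between percentiles 11.9 and 97.7. Tropomyosin (LOC100101174) spanned 34.1 to 94.4 over 4 probes, and vacuolar ATPase subunit C (LOC692828) lay at 43.8 and 92.5. These genes were chosen after their values were seen. Small differences in percentile between genes are therefore within the spread between probes of 1 gene.

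**Figure D5:**
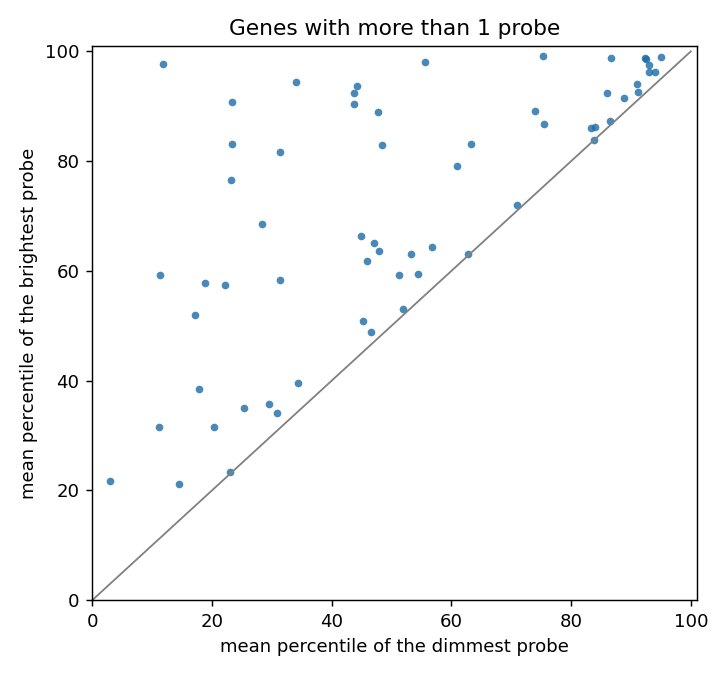
Mean percentile of the brightest member probe against that of the dimmest for the 61 genes with more than 1 member probe, where the grey line marks equality. Most genes lie near the line, and 18 lie 25 percentile points or more above it.

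Bright probes more often carried a gene identifier or a match to an expressed sequence tag, but not more often a description or protein match. Of the brightest 10%, 160 probes (40.4%) carried a gene identifier and 292 (73.7%) matched an expressed sequence tag, against 14.3% and 50.6% of the members outside it. The share with neither a description nor a protein match was much the same, 20.7% in the brightest 10% and 22.7% outside it. In the brightest 100 it was 24.0%, including sw01090, sw18577 (39593, 59716 and 45109), sw22767 (50200, 59716 and 39245) and sw22933 (41145, 59716 and 39561).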

How the data were processed

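Fluorescence intensities of both channels were used as deposited, on a linear scale per the file headers; no background columns were in the files used here, and no source used here names the scanner or a normalization. The control channel is the one that the header of each file names. Probes with a detection mark on all 3 arrays were ranked on each array and the percentiles averaged. For spread, log2 intensities were centred on each array's member median. No test was made, since there is 1 group; 3 arrays limit the precision. Lists are text patterns on the files' symbols and descriptions, and many names are by similarity to other species. Members and lists were chosen with earlier results of these data known, and the patterns were trimmed after values were seen. Named genes are the 30 with the highest mean rank, the 3 brightest and the most variable of each list, the 10 most variable with 400 units or more on all arrays, the 5 steadiest of the brightest 10%, and other-tissue markers in the brightest 10%, with the exceptions stated; not all are printed. Of 653 members with 1 gene identifier, 647 matched the reference table, used for names only. The ranking and the 2-fold calls were run on simulated arrays with a constant noise level and raises larger than 2-fold. No dye difference was simulated, so this bears on the code and not on the results. Python 3.11.15 with pandas 2.3.3 and numpy 2.4.6 was used.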

Additional observations from a re-analysis of the deposited data

How the results depend on the processing

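No paired analysis was possible because only 1 group is described. The number of members was 23229 without the mark filter and 1589 at the second mark level of 1500, which changes the population ranked. The median SD between arrays, 0.231, was 0.239 with control in Cy3 on every array, 0.219 with control at 400 or more and 0.822 without the filter. It was 0.219 at the second mark level, 0.21 after quantile normalization and 0.22 after centring by block. Without each replicate in turn it was 0.18 to 0.197. Those SDs are over fewer arrays, so they are not on the scale of 0.231 and do not show a smaller spread. List members in the brightest 10% numbered 188, against 516 without the filter and 90 at the second mark level, where the tenth is taken over more or fewer probes. Without the filter the counts were 28 serine proteases, 23 peptidases, 9 peritrophic, 16 V-ATPase, 46 respiratory and 7 fat body probes; at the second mark level they were 9, 5, 2, 3 and 8 for the first 5 and 39 for ribosomal proteins. Under the other alternatives (dye, control at 400 or more, quantile, block, 1 probe per gene, each replicate left out) at most 2 of 31 list counts moved by over 1.5 times. Of 149 named probes, 30 moved by more than their spread between arrays with control in Cy3 on every array, and 30 with block centring. Counts added after seeing the data were as follows. Members at least 2-fold above both others in replicate 1 numbered 4 with control at 400 or more and 1453 without the filter. In replicate 2 they numbered 20 with control in Cy3, 3632 without the filter and 15 at the second mark level. In replicate 3 they numbered 22 with control at 400 or more, 685 without the filter and 19 at the second mark level. Without the filter, 18103 of the probes ranked carry no mark on any array. Saturation hides the order of the 13 brightest probes on replicate 2.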

Other observations

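By the pathway annotation in the files, metabolic maps varied in brightness. Fatty acid metabolism had a median percentile of 78.2 over 25 members, Starch and sucrose metabolism 75.3 over 17, Purine metabolism 49.4 over 44, Glycine, serine and threonine metabolism 43.7 over 13, Glycerophospholipid metabolism 42.0 over 10 and Pyrimidine metabolism 34.7 over 19. The Proteasome map had a median of 74.8 over 26 members, with 1 in the brightest 10%. Members can sit in several maps.

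Over 3 arrays, the members and the rest of the gene probes split the signal unevenly. The 3964 members held 83.74, 91.29 and 85.52% of the control signal of all gene probes on replicates 1, 2 and 3, and the 100 brightest probes of each array held 20.63, 25.63 and 21.79%.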
